A study of Homo sapiens with 2 samples.

Results

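miR-126 is a microRNA (miRNA), a short RNA that guides Argonaute proteins to messenger RNAs and represses them. Its hairpin, MIR126, is cut into a 5p arm and a 3p arm, hsa-miR-126-5p and hsa-miR-126-3p, which were taken by name as 2 of the 2218 mature miRNAs listed in the data. The libraries came from K562, a line of human leukaemia cells that resemble precursors of red cells and megakaryocytes. One library was made from K562 cells that received a lentivirus for overexpression of QKI5, a form of the RNA-binding protein Quaking that resides in the nucleus, and 1 from K562 cells that received a GFP lentivirus as control. Both cultures were kept in the same serum-containing medium. The promoter of the vectors, the time after transduction and whether cells were selected or pooled are not stated in the labels. With 1 library in each group, none of the differences has a replicate check and no p-value is given.

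miR-126 is known from endothelial cells, where it maintains vessel integrity, and it is also made in blood stem and progenitor cells and in megakaryocytes. The 3p arm is the usual guide and is known to repress SPRED1 and PIK3R2, inhibitors of growth factor signalling. The 5p arm is studied in endothelium as a repressor of DLK1, a Notch-related ligand. The host gene, EGFL7, encodes a secreted protein of the vessel wall.

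The sequences of both arms and of the hairpin that joins them are shown because the comparison between arms rests on them; they are RefSeq's, on GRCh38.p14, and were matched by name. The hairpin lies on the plus strand at chr9:136670602-136670686, with the 5p arm at chr9:136670616-136670636 and the 3p arm at chr9:136670653-136670674. In GENCODE release 29 this interval was within an intron of 5 of the 7 annotated EGFL7 transcripts, which run on the same strand, and it overlapped no EGFL7 exon. The submitters' processing notes name hg19, so these positions describe the locus and not the mapping. In the arms below, capitals mark the seed, bases 2 to 8, which pairs with targets; in the hairpin, capitals mark the mature arms.
miR-126-5p: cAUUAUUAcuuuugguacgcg
miR-126-3p: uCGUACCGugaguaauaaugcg
MIR126 hairpin: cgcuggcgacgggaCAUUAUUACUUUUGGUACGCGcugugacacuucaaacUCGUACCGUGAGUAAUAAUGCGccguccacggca

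The seeds of the arms differ, and neither was found in any of the other human mature miRNAs in the RefSeq table of 2370. The mature miRNA closest to miR-126-3p differed from it by 7 edits (substitutions, insertions or deletions), and the one closest to miR-126-5p by 8. Each arm thus lacked a near-identical relative in that table with which reads could be shared. RNAfold joined the arms by 18 base pairs in its lowest-energy structure of the hairpin. The 3p arm starts with U and the 5p arm with C. Argonaute proteins are known to favour U or A at that base. Among 134 hairpins with a RefSeq sequence for each arm, the arm more abundant in the GFP library started with U in 47.0%, and the less abundant arm in 21.6%.

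QKI proteins are known to bind ACUAAC or ACUAAU, with UAAC or UAAU as a nearby partial site. The transcribed strand of the MIR126 hairpin held neither ACUAAC nor ACUAAU, which occurred in 1.54% of 1560 RefSeq hairpins. It held UAAU 2 times, overlapping by 1 base, both within the 3p arm. UAAC or UAAU occurred in 25.1% of those hairpins, and in 27.7% of the 721 whose length lay within 10 bases of the 85 bases of MIR126. These matches describe letters in this window and say nothing of binding.

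Levels are reads per 1000000 reads of the library (RPM). The totals behind them, recovered from the value of 1 read, were 6553945 reads for the QKI5 library and 23262340 reads for the GFP library, 3.55 times as many. What was counted in these totals is not stated in the labels. The listed miRNAs held 59.5% of the QKI5 total and 66.3% of the GFP total, so ratios of QKI5 over GFP are larger when taken per miRNA read, at 3.0 for miR-126-3p and 1.59 for miR-126-5p. Intervals are 95% intervals from the recovered reads of 1 library per group, so they cover counting error only. No molecular identifiers tell PCR copies apart, so the intervals may be too narrow even for the sampling of molecules. QKI messenger RNA was not analysed here, and the labelled overexpression therefore went unchecked. The erythroid markers expected of K562 were present, led by miR-451a at 2187 RPM in QKI5 cells and 2798 RPM in GFP cells. The leukocyte miRNA miR-142-3p was higher than that, at 10426 RPM in QKI5 cells and 8889 RPM in GFP cells. So was miR-223-3p, at 9840 RPM in QKI5 cells and 9441 RPM in GFP cells. All 6 erythroid entries had reads in both libraries. Of the 5 among the 200 miRNAs with the highest mean level, 3 had a log2 ratio above 0, and 0 reached 2-fold either way. The other endothelial and stromal miRNAs had nearly the same summed level, 2656 RPM in QKI5 cells and 2660 RPM in GFP cells over 12 entries. miR-145-5p made up most of that sum, at 2572 RPM in QKI5 cells and 2588 RPM in GFP cells. miR-214-3p was the only entry of the 12 without a read in the QKI5 library, and it had 1 read in the GFP library.

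miR-126-3p, the guide arm, had 253466 reads in the QKI5 library, or 38674 RPM, and 334102 reads in the GFP library, or 14362 RPM. It was thus 2.69-fold higher with QKI5 (2.68 to 2.71), a log2 ratio of 1.43. In a bulk library, more of the miRNA per cell and more cells that make it cannot be told apart. A 2-fold or greater excess with QKI5 was seen for 30 of the 200 miRNAs with the highest mean level, a share of 15%, and a 2-fold or greater deficit for 14, a share of 7%. With quantile normalization these counts were 18 higher and 20 lower. miR-126-3p stood 12th of the 200 by log2 ratio, so 6% of them were at least as high. The median of the 200 was 0.06 and the SD across them, which is not replicate error, was 0.86.

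miR-126-5p had 6459 reads in the QKI5 library, or 986 RPM, and 16086 reads in the GFP library, or 692 RPM. It was 1.43-fold higher with QKI5 (1.38 to 1.47), a log2 ratio of 0.51, and did not reach 2-fold. By log2 ratio it stood 66th of the 200, so 33% of them were at least as high. Both arms were therefore higher in the QKI5 library, by unequal amounts; a log2 ratio above 0 was found for 52% of the 200. An exact binomial test on the reads, which compares the libraries and not the conditions, called both arms among 21.4% of 1995 detected miRNAs. At read numbers as high as those of miR-126 such a test calls even small ratios, and many of the 1995 had few reads. The call therefore does not set miR-126 apart. At the fold of the 3p arm the 5p arm would have been at 1862 RPM.

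**Figure D1:**
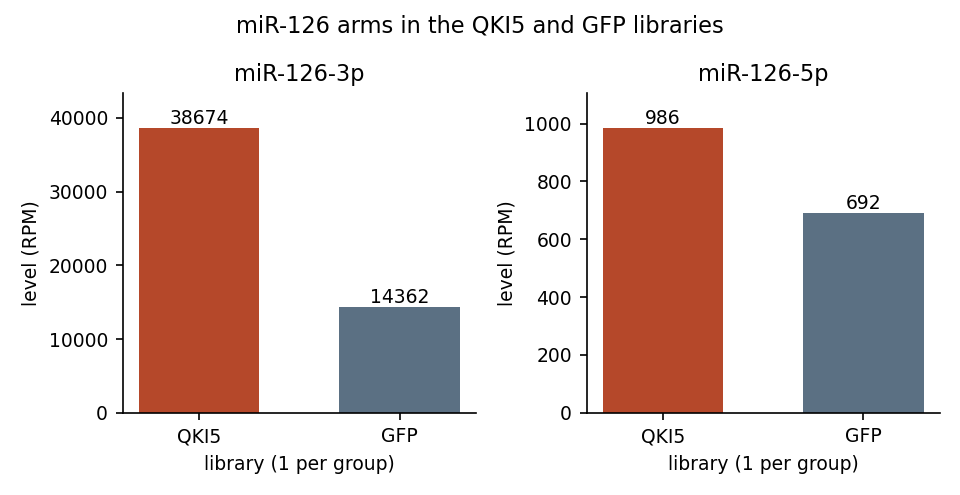
Level of each miR-126 arm in RPM, with the QKI5 library left of the GFP library, 1 library per bar and separate axes for the arms. miR-126-3p stands at 38674 RPM with QKI5 and at 14362 RPM with GFP, and miR-126-5p at 986 RPM with QKI5 and at 692 RPM with GFP, so both arms are higher with QKI5 and the gap is wider for the 3p arm.

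miR-126-3p was the third most abundant miRNA of the QKI5 library and the fifth of the GFP library. It made up 6.50% of the miRNA reads with QKI5 (Wilson interval 6.48% to 6.53%) and 2.17% with GFP (2.16% to 2.17%). In the QKI5 library miR-19b-3p and miR-19a-3p, from the oncogenic miR-17-92 cluster, stood above it at 4.27 and 3.17 times its reads. Below it in that library were miR-27a-3p, at 0.832 times its reads, and miR-376c-3p, at 0.585 times. In the GFP library miR-18a-5p and miR-376c-3p stood above it, at 2.41 and 1.93 times its reads, and miR-27a-3p and miR-223-3p below it, at 0.774 and 0.657 times. All of these neighbours differed from miR-126-3p by more than the counting error.

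The increase of miR-126-3p, 24311 RPM, was the largest of any listed miRNA in absolute terms and made up 26.2% of the summed increases. miR-27a-3p followed with 21039 RPM, and miR-16-5p, a repressor of cell cycle genes, with 5622 RPM. RPM values are shares of a library, so they are not independent of each other. The most abundant miRNAs were lower with QKI5, with differences of -77009 RPM for miR-19a-3p and -38713 RPM for miR-19b-3p.

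miR-126-5p ranked 50th in the QKI5 library and 60th in the GFP library, with 0.166% of the miRNA reads with QKI5 and 0.104% with GFP. Its neighbours lay close. In the QKI5 library miR-299-5p and miR-485-3p had 1.10 and 1.06 times its reads and miR-25-3p 0.934 times, whereas miR-30b-5p, at 0.992 times (0.958 to 1.03), did not differ from it beyond counting error. In the GFP library miR-378a-5p had 1.03 times its reads, miR-758-3p 0.977 times and miR-30c-5p 0.917 times. miR-487b-3p, at 1.0 times (0.981 to 1.03), could not be told apart from it there.

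**Figure D2:**
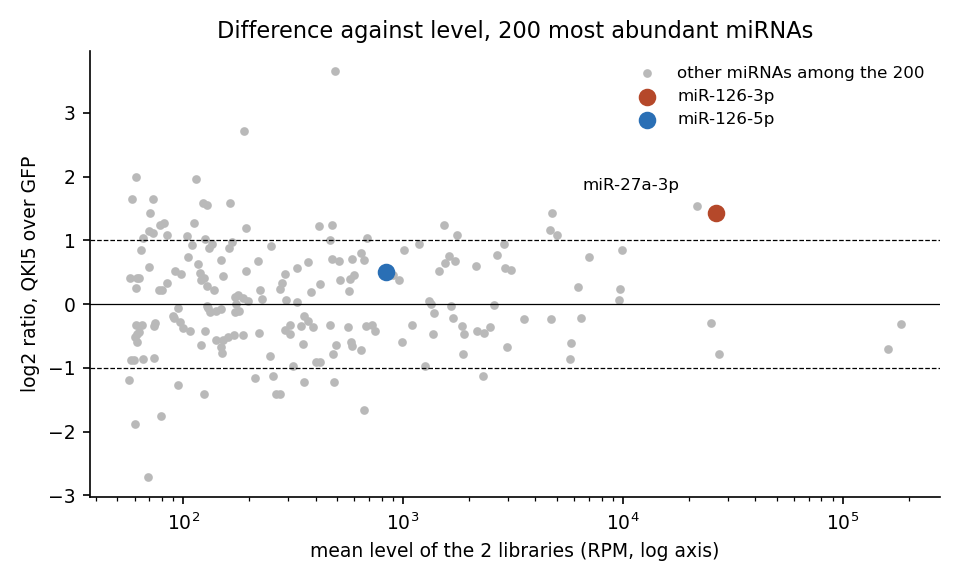
Log2 ratio of QKI5 over GFP against the mean level of the 2 libraries in RPM (log axis) for the 200 most abundant miRNAs, 1 point each, with dashed lines at 2-fold. miR-126-3p, at 1.43, lies above the upper line beside miR-27a-3p at the high end of the level axis, and miR-126-5p, at 0.51, lies between the lines.

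The 3p arm outnumbered the 5p arm in both libraries, by more with QKI5. There were 39.2 reads of miR-126-3p per read of miR-126-5p in the QKI5 library (38.3 to 40.2) and 20.8 in the GFP library (20.4 to 21.1). The 5p arm was accordingly 2.48% of the miR-126 reads with QKI5 (2.43% to 2.55%) and 4.59% with GFP (4.52% to 4.66%). The arm ratio was 1.89-fold higher with QKI5 (Woolf interval of the odds ratio 1.83 to 1.95), a log2 shift of 0.92. Because both arms are read in the same library, rescaling a library by a constant leaves this value as it is. The sum of both arms was 39659 RPM in QKI5 cells and 15054 RPM in GFP cells, 2.63-fold higher (2.62 to 2.65).

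For comparison, 156 hairpins had at least 10 reads of each arm in each library. The share of them whose arm ratio moved at least as far as that of miR-126, in either direction, was 35.9%, and 33.3% moved 2-fold or more. A shift toward the 3p arm at least as large was seen in 14.7%. The median size of the log2 shift was 0.66. Against this background the shift of miR-126 was above the middle but not at the edge. The hairpin stood 20th of the 156 in its lean to the 3p arm in the QKI5 library and 24th in the GFP library.

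Of 67 hairpins that favoured the 3p arm in the GFP library, 31 leaned further to 3p with QKI5, as miR-126 did. Both arms had a log2 ratio of the same sign in 60.9% of the 156, with 57 hairpins higher and 38 lower in both arms. Of the 30 miRNAs past 2-fold upward, 18 had both arms counted in this way. The partner arm was also at least 2-fold higher for 4 of these, higher by less than 2-fold for 9, including miR-126, and lower for 5.

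The hairpins nearest to miR-126 in the arm ratio of the GFP library were miR-376b, miR-487b and miR-889. Their 3p reads per 5p read were 18.7 with QKI5 and 20.2 with GFP for miR-376b, 14.8 with QKI5 and 20.0 with GFP for miR-487b, and 28.6 with QKI5 and 19.6 with GFP for miR-889. Relative to GFP, the ratio with QKI5 was 0.923 for miR-376b (0.855 to 0.998) and 0.741 for miR-487b (0.632 to 0.868), whereas the interval for miR-889, at 1.46, included 1 (0.915 to 2.32). The 3 hairpins that moved furthest to 3p were miR-361 (9.30-fold), miR-652 (6.14-fold) and miR-432 (4.04-fold). The 3 that moved furthest to 5p were miR-539, miR-369 and miR-424, with log2 shifts of -3.12, -2.96 and -2.42.

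**Figure D3:**
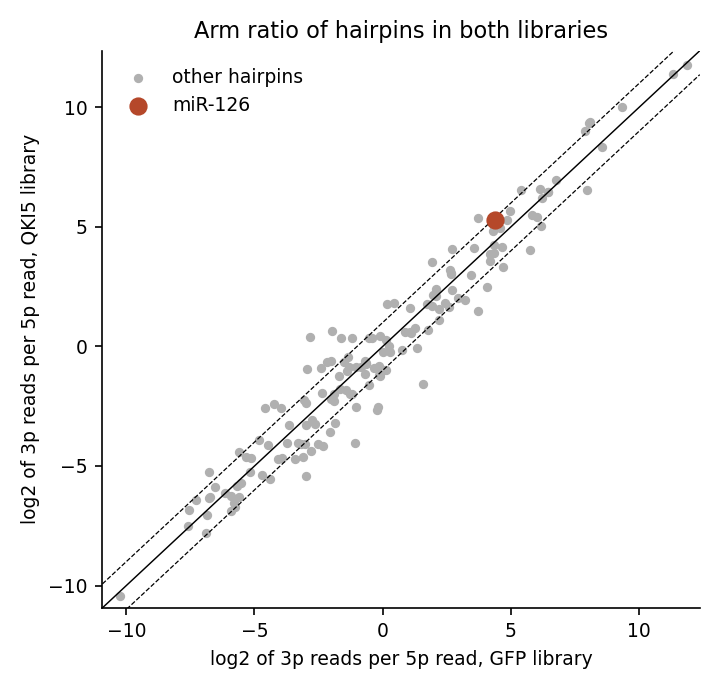
Log2 of 3p reads per 5p read in the QKI5 library (vertical) and in the GFP library (horizontal) for 156 hairpins, 1 point each, with the line of equal ratios and dashed lines at a 2-fold shift. miR-126 lies between the solid and the upper dashed line, at 5.29 with QKI5 and 4.38 with GFP, and 52 hairpins lie 2-fold or further from equality.

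By distance between log2 levels over the 2 libraries, miR-27a-3p was the miRNA most like miR-126-3p, at 0.46. Its level was 32157 RPM in QKI5 cells and 11118 RPM in GFP cells, a ratio of 2.89 (2.88 to 2.91). The next were miR-376c-3p, miR-18a-5p, miR-16-5p and miR-142-3p, at distances of 1.22 to 2.01. Of these, miR-16-5p was 1.79-fold higher and miR-142-3p, a leukocyte miRNA, 1.17-fold higher with QKI5, whereas miR-376c-3p and miR-18a-5p stood at ratios of 0.817 and 0.579.

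The miRNAs most like miR-126-5p were miR-485-3p, miR-299-5p, miR-409-3p, miR-107 and miR-301b, at distances of 0.16 to 0.62. Their ratios of QKI5 over GFP lay between 1.30 and 1.81, and none reached 2-fold. Such likeness over 2 libraries reflects level as much as difference.

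The members and the lists of miRNAs used here were chosen with earlier results of these data known. Shares and medians of the lists therefore describe the lists only. Among miRNAs studied in megakaryocytes and platelets, 9 of 16 besides miR-126 were in the 200 most abundant. Of these, 2 were at least 2-fold higher with QKI5, miR-27a-3p and miR-146a-5p, and 0 were at least 2-fold lower, against 15% higher and 7% lower over the 200. miR-146a-5p, a brake on inflammatory signalling, stood at 88.8 RPM in QKI5 cells and 43.0 RPM in GFP cells, a ratio of 2.07 (1.86 to 2.29). The 9 had a median log2 ratio of -0.22, with 4 above 0, against 0.06 over the 200. All 16, each of which had reads, had a median of 0.14, of the opposite sign, against 0.12 over the 1995 detected miRNAs. That 0.12, also used for the lists below, equals the log2 ratio of 1 QKI5 read and 3 GFP reads. It thus reflects entries with few reads.

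The list of miRNAs studied in blood stem and progenitor cells had 8 of its 12 entries among the 200, of which 1 was at least 2-fold higher and 0 lower, beside 15% and 7% of the 200. That was let-7e-5p, of a family that represses growth genes, at 670 RPM in QKI5 cells and 282 RPM in GFP cells (2.37-fold, 2.28 to 2.46). The most abundant entry, miR-125a-5p, was 1.45-fold higher (1.43 to 1.48), close to miR-126-5p in fold. The median log2 ratio of the 8 was -0.05, with 4 above 0, against 0.06 over the 200, and that of all 12 was 0.29, of the opposite sign, against 0.12 over all detected miRNAs.

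Of the miRNAs studied in blood vessel growth, 13 of 18 were among the 200, with 2 past 2-fold upward and 0 downward. The upward count is close to the 15% of the 200, of which 7% were past 2-fold downward. Those past it were miR-27a-3p and miR-24-3p, which has a hairpin gene in the same cluster and another elsewhere, and miR-24-3p stood at 580 RPM in QKI5 cells and 248 RPM in GFP cells (2.34-fold, 2.24 to 2.44). miR-19a-3p, the most abundant entry, was 1.63-fold lower with QKI5 (1.62 to 1.63). The 13 had a median log2 ratio of -0.21, with 6 above 0, against 0.06 over the 200. Over the 17 detected entries it was 0.42, of the opposite sign, against 0.12 over all detected miRNAs. Among leukocyte miRNAs 4 of 7 were among the 200, and 1, miR-146a-5p, was at least 2-fold higher and 0 lower, beside the 15% and 7% of the 200. The median was 0.14 over the 4 and 0.25 over all 7, and the sum of the 7 was 20983 RPM in QKI5 cells and 19153 RPM in GFP cells.

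Like miR-126, many miRNAs are cut from introns of protein-coding genes. A list of 37 such entries was used, which does not hold all of them and was chosen with earlier results known. Its shares and medians therefore describe the list and not intronic miRNAs at large. Of the 37, 23 were among the 200. At least 2-fold higher with QKI5 were 6 of these, and at least 2-fold lower 2, against 15% and 7% of the 200. The higher ones were miR-660-5p (3.13-fold), miR-185-5p (2.68-fold), miR-532-5p (2.42-fold), miR-103a-3p (2.12-fold), miR-224-5p (2.11-fold) and miR-25-3p (2.05-fold). miR-185-5p was closest to miR-126-3p in fold, at 6946 RPM in QKI5 cells and 2591 RPM in GFP cells. miR-361-5p was 3.71-fold lower and miR-106b-5p 2.19-fold lower with QKI5. The entries miR-660-5p and miR-532-5p belong to the same cluster in CLCN5. Likewise miR-25-3p and miR-106b-5p, which moved in opposite directions, belong to the same cluster in MCM7. The entries counted are thus not all independent of each other. The median log2 ratio of the 23 was 0.57, with 15 above 0, against 0.06 over the 200. That of all 37 was 0.60, against 0.12 over all detected miRNAs, a value set by entries with few reads. EGFL7 messenger RNA was not analysed here.

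The log2 ratios of both arms stayed above 0 under all 8 other settings of scaling, pseudocount, composition and depth. That of miR-126-3p ran from 0.99 to 1.58 and was just under 2-fold only with quantile normalization, a ratio of 1.98. That of miR-126-5p ran from 0.40 to 0.67.

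**Figure D4:**
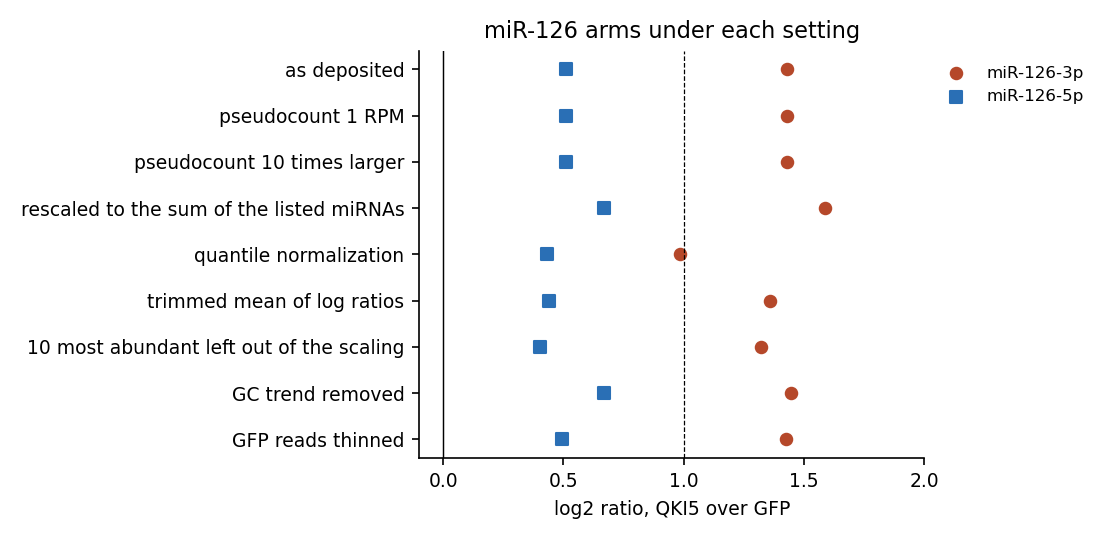
Log2 ratio of QKI5 over GFP for miR-126-3p (circles) and miR-126-5p (squares) as deposited and under 8 other settings, with a solid line at 0 and a dashed line at 2-fold. The circles lie between 0.99 and 1.58 and the squares between 0.40 and 0.67. Rescaling a library by a constant moves both arms alike, and the pseudocounts are small beside these levels. Those settings therefore could not change the gap between the arms.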

How the data were processed

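Per the labels' protocols, small RNA was isolated with a miRNA kit, and libraries were made with an Ion Total RNA-Seq kit and read on an Ion Proton instrument. Bowtie 0.12.3 and the build hg19 are named in the submitters' processing notes; neither source gives the miRNA annotation or the handling of reads with several matches. The table's name says RPKM, but the deposited values are RPM: values above 0 were whole multiples of a step fixed for each column, 0.153 RPM for QKI5 and 0.0430 RPM for GFP, within 0.1 of a read, in 100% of values, so whole reads were recovered. The design had left the unit open.

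Log2 ratios used log2(RPM + 0.153), which understates ratios of miRNAs with few reads; folds are plain RPM ratios with exact conditional binomial intervals, and shares within miR-126 have exact binomial ones. Arm ratios used hairpins with both arms listed. The linear GC trend was fitted on the 186 of the 200 most abundant miRNAs with a RefSeq mature sequence (1946 of 2218 names matched). Besides the arms, the text names rank neighbours, the miRNAs nearest in level, hairpins by arm ratio, and each list's most abundant entry and entries past 2-fold among the 200. The members and lists were chosen with earlier results of these data known. An exact binomial test of the reads (Benjamini-Hochberg, 0.05), added after seeing the data, compares the libraries and not the conditions. It called 426 of 1995 detected miRNAs. Scripts were tested on simulated data. Python 3.11.15, numpy 2.4.6, scipy 1.17.1, pandas 2.3.3, matplotlib 3.10.9 and RNAfold 2.7.2 were used.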

Additional observations from a re-analysis of the deposited data

How the results depend on the processing

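No paired analysis was possible because each group has 1 library. The log2 ratios of miR-126-3p and miR-126-5p were 1.58 and 0.67 with each column scaled to its summed miRNAs, 0.99 and 0.43 with quantile normalization, 1.36 and 0.44 with a trimmed mean, 1.32 and 0.40 with the 10 most abundant miRNAs left out of the scaling, and 1.44 and 0.67 with the GC trend removed. That scaling moved the median of the 200 by 0.16 and leaving out the 10 by -0.11, on the log2 scale. The log2 shift in arm ratio was 0.78 with the GC trend removed. Both pseudocounts and the GFP reads thinned to the QKI5 total kept these 3 values within their counting intervals.

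Counts of miRNAs at least 2-fold higher and lower were 30 and 14. With quantile normalization 18 were higher and 20 lower, so 47.4% of the calls were higher, against 68.2%. That share was 56.1% with the 10 most abundant left out and 77.4% with the columns scaled to their summed miRNAs (41 higher, 12 lower). The counts were 11 and 4 among the 100 most abundant miRNAs, 83 and 29 among 400, and 475 and 145 among all 1995 detected. Among the 1995, 1 read with QKI5 and 0 with GFP gave a log2 ratio of 1, the threshold itself. The reverse, 0 with QKI5 and 1 with GFP, gave -0.36, so both directions were not counted on equal terms there. Among the 200, the counts were 59 and 40 at 1.5-fold and 7 and 4 at 3-fold. The added exact binomial test called 290 higher and 136 lower. Hairpins with a 2-fold move in arm ratio were 52 of 156. They were 79 of 217 with at least 3 reads of each arm and 29 of 72 with at least 100. At 1.5-fold there were 87, and at 3-fold 18. Beyond what each threshold or filter does by construction, the cause was not tested. The shallowest value of miR-126, the 5p arm with QKI5, rested on 6459 reads. The spread between cultures could not be estimated from 1 library per group.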

Other observations

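Within the endothelial and stromal list, the entries of the cluster of miR-143 and miR-145, known from smooth muscle, were unequal by a wide margin. miR-145-5p had 16857 reads with QKI5 and 60201 with GFP, while miR-143-3p had 11 reads with QKI5 and 7 with GFP. This contrast was picked after the values were seen and no cause was tested.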
